A study of Mus musculus with 30 samples.

Results

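The genes described here encode the mitochondrial respiratory chain and the ATP synthase, in forebrain tissue of mice given clozapine, haloperidol or no drug. They were chosen by symbol: the probe sets with exactly 1 gene symbol that begins with Nduf, Uqcr, Cox4, Cox5, Cox6, Cox7, Cox8 or Atp5, or that equals Sdha, Sdhb, Sdhc, Sdhd or Cyc1. This gave 157 probe sets for 85 of the 12394 genes with such a probe set, and each gene is represented by its probe set with the highest mean. Of the 85 genes, 33 belong to complex I, 4 to complex II, 9 to complex III, 17 to complex IV, 17 to complex V (the ATP synthase), and 5 are complex I assembly factors named Ndufaf. Ndufa4, named as a complex I gene and now regarded as a complex IV subunit, was counted with complex IV, as was Cox7a2l.

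The study compared the long-term expression profiles of both antipsychotics. The mice were males of the inbred C57BL strain and were kept singly. Of these, 10 received clozapine at 12 mg/kg/day, 10 received haloperidol at 1.6 mg/kg/day and 10 received no drug, for 12 weeks. Both drugs were dissolved in the drinking water, so the intake of each mouse followed how much it drank; per the labels the concentration was adjusted to weekly weight and water use. RNA of 1 mouse was hybridised to each Affymetrix MOE430A array, and no samples were pooled. The labels give an age of 4 weeks, which cannot be the age after the treatment. They name the right hemisphere in the source and the left in the tissue field, and the dose note in the haloperidol protocol names clozapine.

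The respiratory chain passes electrons from NADH (complex I) and succinate (complex II) through ubiquinone to complex III, then by cytochrome c to complex IV, which reduces oxygen. Complexes I, III and IV pump protons across the inner mitochondrial membrane, and complex V uses the returning protons to make ATP. The genes described here are the nuclear ones; a few core subunits are encoded by mitochondrial DNA. Neurons depend on this pathway for the energy that ion pumping and synaptic transmission use.

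The values are log2 expression estimates, and the probe sets of different genes are not compared with each other. Of the 85 genes, 78 had a mean of at least 4 over the 30 arrays and were tested. The other 7 are all in complex IV and had means below 4, under the array medians of 4.63 to 4.88. Cox6a2, Cox7a1 and Cox8b, isoforms of heart and skeletal muscle, had means of 2.80, 3.57 and 3.15. Cox4i2, Cox6b2 and Cox8c had means of 2.27, 2.21 and 0.74. Cox7c, a subunit of most tissues, had 3.80 on its probe set with the highest mean. Its values were above 4 in clozapine 7 to 10 (4.04 to 5.58), haloperidol 7 (5.65) and control 1 (4.52), and below 4 in the other arrays. Just inside the limit was Ndufb1 with 4.02. The median over the 78 genes was 10.72 and the highest mean was 13.21.

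All 7 neuronal, 6 astrocyte, 5 oligodendrocyte and 6 microglial markers on the array had a mean of at least 4. Of the markers of endothelial cells 3 of 6 did, of choroid plexus 3 of 4, of blood 0 of 2, of heart and skeletal muscle 2 of 9, and of brown fat 1 of 4. The mean of the neuronal markers ranged from 9.48 to 11.09 over control arrays, from 10.05 to 11.06 over clozapine arrays and from 9.94 to 11.08 over haloperidol arrays. In bulk tissue, fewer cells of a type and less RNA per cell cannot be told apart. Clustering by correlation, blind to treatment, put arrays of all treatments together: control, clozapine and haloperidol numbered 3, 3 and 5 in cluster A, 4, 1 and 3 in cluster B, and 2, 5 and 0 in cluster C. All 11 arrays of cluster A carry replicate numbers from 1 to 6. Controls 7 to 10 and haloperidol 8 to 10 lay in cluster B, while clozapine 8 to 10 lay in cluster C, so at these higher numbers cluster and clozapine treatment cannot be told apart. A further 4 arrays stood on their own, clozapine 7, control 1, haloperidol 2 and haloperidol 7. The difference between 3′ and 5′ control probe sets of Gapdh and Actb, a sign of RNA degradation, was 4.09 in control 1 and 2.45 in haloperidol 7, and 0.47 to 1.36 in the other arrays.

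Relative to its mean over the 30 arrays, the average of the 78 genes ranged from -0.16 to 0.13 in control, from -0.11 to 0.19 in clozapine and from -0.23 to 0.40 in haloperidol. The value of 0.40 was that of haloperidol 2, and the other haloperidol arrays lay at 0.07 or below. The 3 groups overlapped in this average. Their means were -0.013 ± 0.097 (SD, n = 10) in control, 0.037 ± 0.092 in clozapine and -0.024 ± 0.17 in haloperidol. Without control 1, haloperidol 2 and haloperidol 7 the control mean was -0.027 and the haloperidol mean -0.066.

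**Figure D1:**
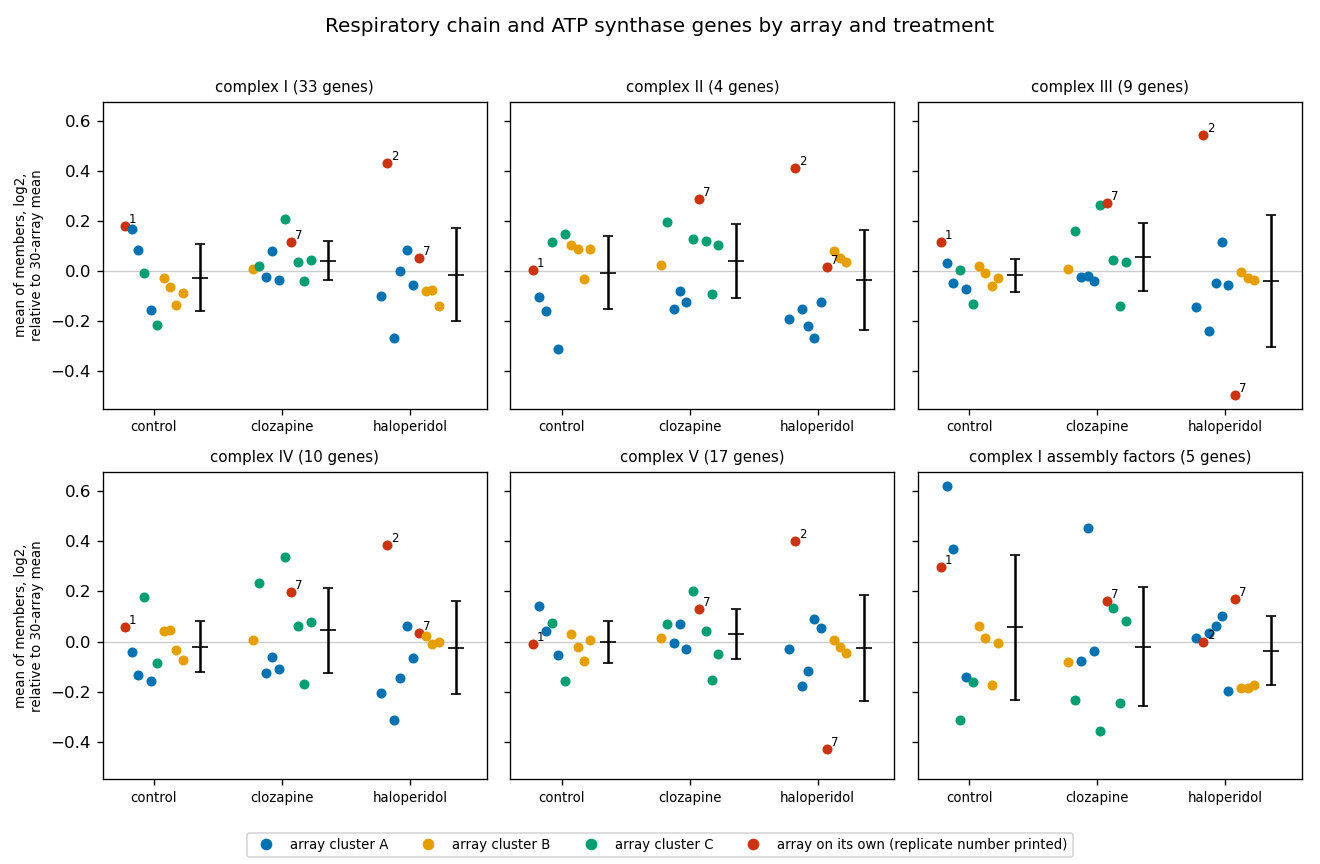
Mean of the tested genes of each complex on every array, as log2 relative to the mean over the 30 arrays, with arrays in groups along the horizontal axis and coloured by array cluster; horizontal ticks and bars give the group mean and SD (n = 10). Haloperidol 2 lies above the other haloperidol arrays for complexes I to V, haloperidol 7 lies low for complexes III and V, and the groups overlap for every complex.

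Haloperidol 2 was high for 65 of the 78 genes relative to the mean of the other haloperidol arrays, and 12 of them were more than 1 log2 unit higher. All 10 tested complex IV genes were among those higher. The largest excess was that of Atp5g1, which encodes a subunit c of the membrane rotor of ATP synthase, with 1.54, and Ndufaf3 followed with 1.52. Ndufaf4, a complex I assembly factor, instead had a difference of -2.46 in this array, and Ndufs1 had -0.72.

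In haloperidol 7, one of the arrays with a wide 3′ to 5′ difference, the complexes differed from each other. Its average relative to the 30 arrays was -0.49 for complex III and -0.43 for complex V, against 0.052 for complex I and 0.033 for complex IV. Relative to the other haloperidol arrays, Atp5e, the epsilon subunit of the ATP synthase stalk, had -2.25. Atp5l, the g subunit of its membrane part, had -2.0, and Uqcrc1, a core protein of complex III, had -1.67. Ndufs7, an iron-sulphur subunit of complex I, had 1.21. In control 1, the other array with a wide difference, 57 of 78 genes lay above the mean of the remaining controls, while Atp5g2, another subunit c gene, had -1.81. The part of RNA quality in these values was not tested.

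Several of these genes differed between the array clusters by more than between treatments. Over the 26 clustered arrays, the cluster accounted for a median of 28.4% of the variance of a respiratory chain gene, against 40.8% over all 12944 probe sets tested. Treatment accounted for a median of 5.04% over 30 arrays, against 4.74% for all probe sets. The clusters were found from these same arrays, so their differences are a description. Ndufaf4 had the largest cluster share, 87.2%. It had a mean of 9.76 in cluster A, with arrays from 9.18 to 10.52, 8.34 in B, with arrays from 7.97 to 8.51, and 7.82 in C, with arrays from 6.96 to 8.24. No array of cluster A overlapped those of B and C.

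Uqcrc1 had a mean of 9.93 in A, 10.56 in B and 10.33 in C. Cox5a, a subunit of the matrix side of complex IV, had 11.69, 12.25 and 12.11 in the same order. Both were lowest in cluster A. The same held for Atp5d, the delta subunit of the ATP synthase stalk, with 9.68, 10.48 and 10.23. Highest in cluster A instead was Ndufv2, an iron-sulphur subunit of the NADH-oxidising part of complex I, with 11.75, 11.23 and 11.15. Atp5e, which sits in the same stalk as Atp5d, was also highest in A, with 10.09, 9.46 and 8.89. Subunits of the same complex therefore did not share 1 order across the clusters. Sdha, the flavoprotein of complex II that oxidises succinate, had 10.54 in A, 10.82 in B and 11.15 in C.

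**Figure D2:**
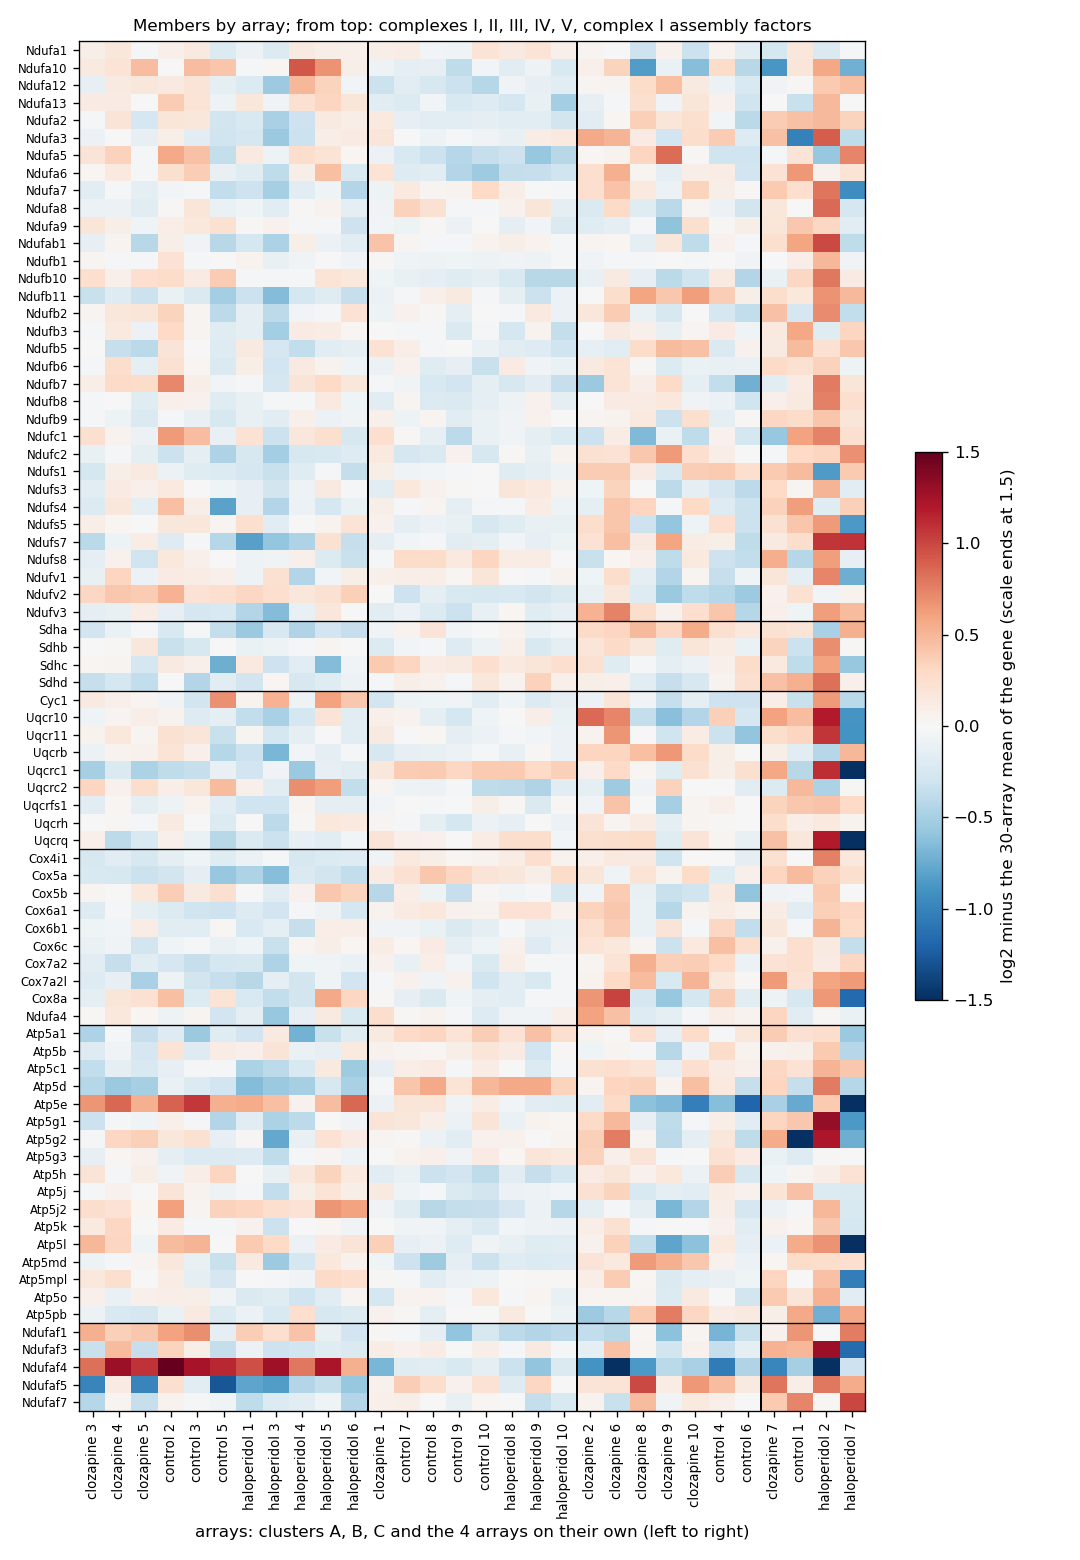
Log2 value of each of the 78 tested genes minus its mean over the 30 arrays, with genes in rows by complex and arrays in columns by cluster A, B, C and the 4 arrays on their own; the colour scale ends at 1.5 in either direction. Ndufaf4 and Atp5e are high in cluster A, Atp5d and Uqcrc1 are low there, and haloperidol 2 is high for 65 of the 78 genes.

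Promoters are shown for Ndufaf4, whose level differed most between clusters, and for the catalytic pair of complex II and Atp5md, whose group differences follow. Each line gives the 160 bases before the transcription start, from RefSeq on GRCm38.p6, read 5′ to 3′ on the gene's strand. Capitals mark matches to the GC box GGGCGG on either strand; the GC box is bound by Sp1. Ndufaf4 lies at chr4:24897923-24898082 on the plus strand, Sdhb at chr4:140961111-140961270 on the plus strand, Sdha at chr13:74350241-74350400 on the minus strand and Atp5md at chr19:47090648-47090807 on the minus strand.
Ndufaf4: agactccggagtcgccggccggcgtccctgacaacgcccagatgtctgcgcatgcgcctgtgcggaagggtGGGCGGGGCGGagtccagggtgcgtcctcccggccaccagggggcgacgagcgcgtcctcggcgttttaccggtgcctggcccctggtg
Sdhb: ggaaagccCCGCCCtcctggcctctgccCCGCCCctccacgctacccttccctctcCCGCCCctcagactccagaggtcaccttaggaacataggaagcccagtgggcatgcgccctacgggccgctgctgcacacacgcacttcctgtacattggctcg
Sdha: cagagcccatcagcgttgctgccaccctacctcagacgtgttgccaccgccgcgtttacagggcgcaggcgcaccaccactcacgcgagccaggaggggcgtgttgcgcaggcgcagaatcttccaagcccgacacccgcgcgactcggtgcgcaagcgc
Atp5md: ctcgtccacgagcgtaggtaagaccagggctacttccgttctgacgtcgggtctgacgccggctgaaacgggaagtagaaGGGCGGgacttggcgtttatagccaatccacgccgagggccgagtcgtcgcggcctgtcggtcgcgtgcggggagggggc
The Sdhb promoter holds several GC boxes, and the Sdha promoter shown holds none.

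In the windows from 250 bases before to 50 after the start, RefSeq's table held 70 of the 85 genes. The ETS motif CCGGAAGT was in 7.14% of these 70, against 9.79% of the 6179 genes that were tested on the array and have a window. The YY1 motif AAGATGGC was in 12.9% against 5.84%, the cAMP response element TGACGTCA in 4.29% against 3.79% and the GC box in 44.3% against 71.5%. Over all 27025 genes with a window, tested or not, the shares were 4.31%, 3.19%, 2.03% and 38.2% in the same order, so the side on which the ETS motif and the GC box lay depended on the genes compared with. The 70 include genes that were not tested. Both strands were searched, matches that overlap were kept, and a match is a description of letters, not of a factor bound there.

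The first question was how clozapine-treated mice differed from untreated ones. No respiratory chain gene passed the test, and the differences were small. Among the 78 tested genes the largest sizes were 0.38 for Atp5g2 and -0.43 for Ndufaf4, both genes whose arrays spread widely within each group. The Atp5g2 value rests largely on control 1, which had 7.92 while the other controls had 9.36 to 9.97, and without it the difference was 0.20 (SE 0.18). Limma called 0 of the 78 genes at an adjusted p under 0.05, as it called 0% of all 12944 probe sets. Before adjustment, 4 of the 78 (5.13%) had p under 0.05, against 4.35% of all probe sets. All 4 had a higher mean in clozapine: Atp5md, Sdhb, Ndufc2 and Ndufv3.

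Atp5md, a small subunit of the membrane part of ATP synthase, had the smallest p. Its lowest, median and highest log2 values were 10.52, 10.93 and 11.33 in control, 10.98, 11.15 and 11.70 in clozapine and 10.51, 10.998 and 11.32 in haloperidol. The groups overlapped, although the control mean was exceeded in 10 of 10 clozapine arrays. The means were 11.24 ± 0.26 (SD, n = 10) in clozapine and 10.92 ± 0.25 in control. They differed by 0.32 (SE 0.12), or 1.24-fold (limma p = 0.015, adjusted p = 0.9997). Its difference was 0.08 within cluster A and 0.39 within cluster C.

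Sdhb, the iron-sulphur subunit that carries electrons from Sdha to ubiquinone, had 10.31, 10.56 and 10.75 in control and 10.44, 10.81 and 10.97 in clozapine. The ranges overlapped, and the control mean was exceeded in 8 of 10 clozapine arrays. The difference was 0.22 (SE 0.10, limma p = 0.041, adjusted p = 0.9997). It was 0.25 within cluster A, 0.12 within cluster C and -0.12 within cluster B, which holds 1 clozapine array.

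Ndufc2, an accessory subunit of the membrane arm of complex I, had 11.19, 11.48 and 11.96 in control and 11.52, 11.83 and 12.30 in clozapine. The difference was 0.27 (SE 0.13), with 8 of 10 clozapine arrays exceeding the mean of controls, and 0.22, 0.31 and 0.30 within clusters A, B and C. A second Ndufc2 probe set had a difference of -0.12 (SE 0.19), so the probe sets of this gene did not share a direction. Ndufv3, an accessory subunit of the NADH-oxidising part, had 10.39, 10.66 and 11.24 in control and 10.65, 10.92 and 11.56 in clozapine, with 9 of 10 clozapine arrays above the control mean. Its difference was 0.30 (SE 0.14), and 0.16, 0.013 and 0.37 within clusters A, B and C.

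The fifth smallest p among higher values was that of Uqcrb, a subunit of complex III next to its ubiquinone site, with a difference of 0.25 (SE 0.12). On the lower side Atp5b, the catalytic beta subunit of ATP synthase, had the smallest p. Atp5b had a mean of 12.75 ± 0.15 (SD, n = 10) in clozapine and 12.92 ± 0.13 in control, a difference of -0.17 (SE 0.095, limma p = 0.075). All 10 clozapine arrays lay below the control mean of Atp5b, and the ranges overlapped. The next were Ndufc1 with -0.23 (SE 0.15), Sdhd, a membrane anchor of complex II, with -0.17 (SE 0.13), Ndufa9 with -0.12 (SE 0.099) and Ndufaf4 with -0.43 (SE 0.42). Second probe sets of Ndufc1 and Sdhd had 0.14 and 0.15.

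By complex, the median difference between clozapine and control was 0.075 for complex I, with 21 of 33 genes higher, 0.071 for complex II, with 2 of 4, 0.098 for complex III, with 6 of 9, and 0.071 for complex IV, with 6 of 10. It was -0.0062 for complex V, with 8 of 17 higher, and this median was 0.0066 under quantile normalization and 0.013 with each array centred on its median. Without control 1 it was 0.019, with 10 of 17 higher, while the median of all probe sets was then 0.041, with 58.1% higher. Over the 78 genes the median was 0.053 with 46 higher, and over all probe sets it was 0.023 with 55.3% higher. Within clusters A, B and C the median of the 78 genes was -0.033, 0.073 and 0.12, so its sign differed between clusters. That of all probe sets was -0.013, 0.036 and 0.033 in the same order.

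Other main subunits had these differences, beside those of Atp5b, Sdhb and Atp5g2 above. Sdha had 0.15 (SE 0.13). Ndufv1, the NADH-binding subunit of complex I, had a difference of -0.012 (SE 0.13) and Ndufs7 had 0.22 (SE 0.19), with -0.18 (SE 0.18) on its second probe set. In complex III, the core proteins Uqcrc1 and Uqcrc2 had -0.055 (SE 0.22) and -0.039 (SE 0.15), and the Rieske iron-sulphur protein Uqcrfs1 had -0.044 (SE 0.11). In complex IV, Cox4i1, which helps regulate the enzyme by ATP, had -0.020 (SE 0.10), Cox5a -0.022 (SE 0.14) and Cox5b -0.064 (SE 0.12). In ATP synthase, the alpha subunit Atp5a1 had -0.048 (SE 0.15), the subunit c genes Atp5g1 and Atp5g3 had 0.00014 and 0.065, and Atp5o had -0.0062.

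In clozapine against control the 95% confidence interval lay within 1.5-fold in either direction for 69 of the 78 genes (88.5%), against 57.5% of all probe sets. The median half-width of the interval was 0.27 on the log2 scale, or 1.202-fold, against 1.31-fold for all probe sets. The widest interval was that of Ndufaf4, from -1.30 to 0.43.

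**Figure D3:**
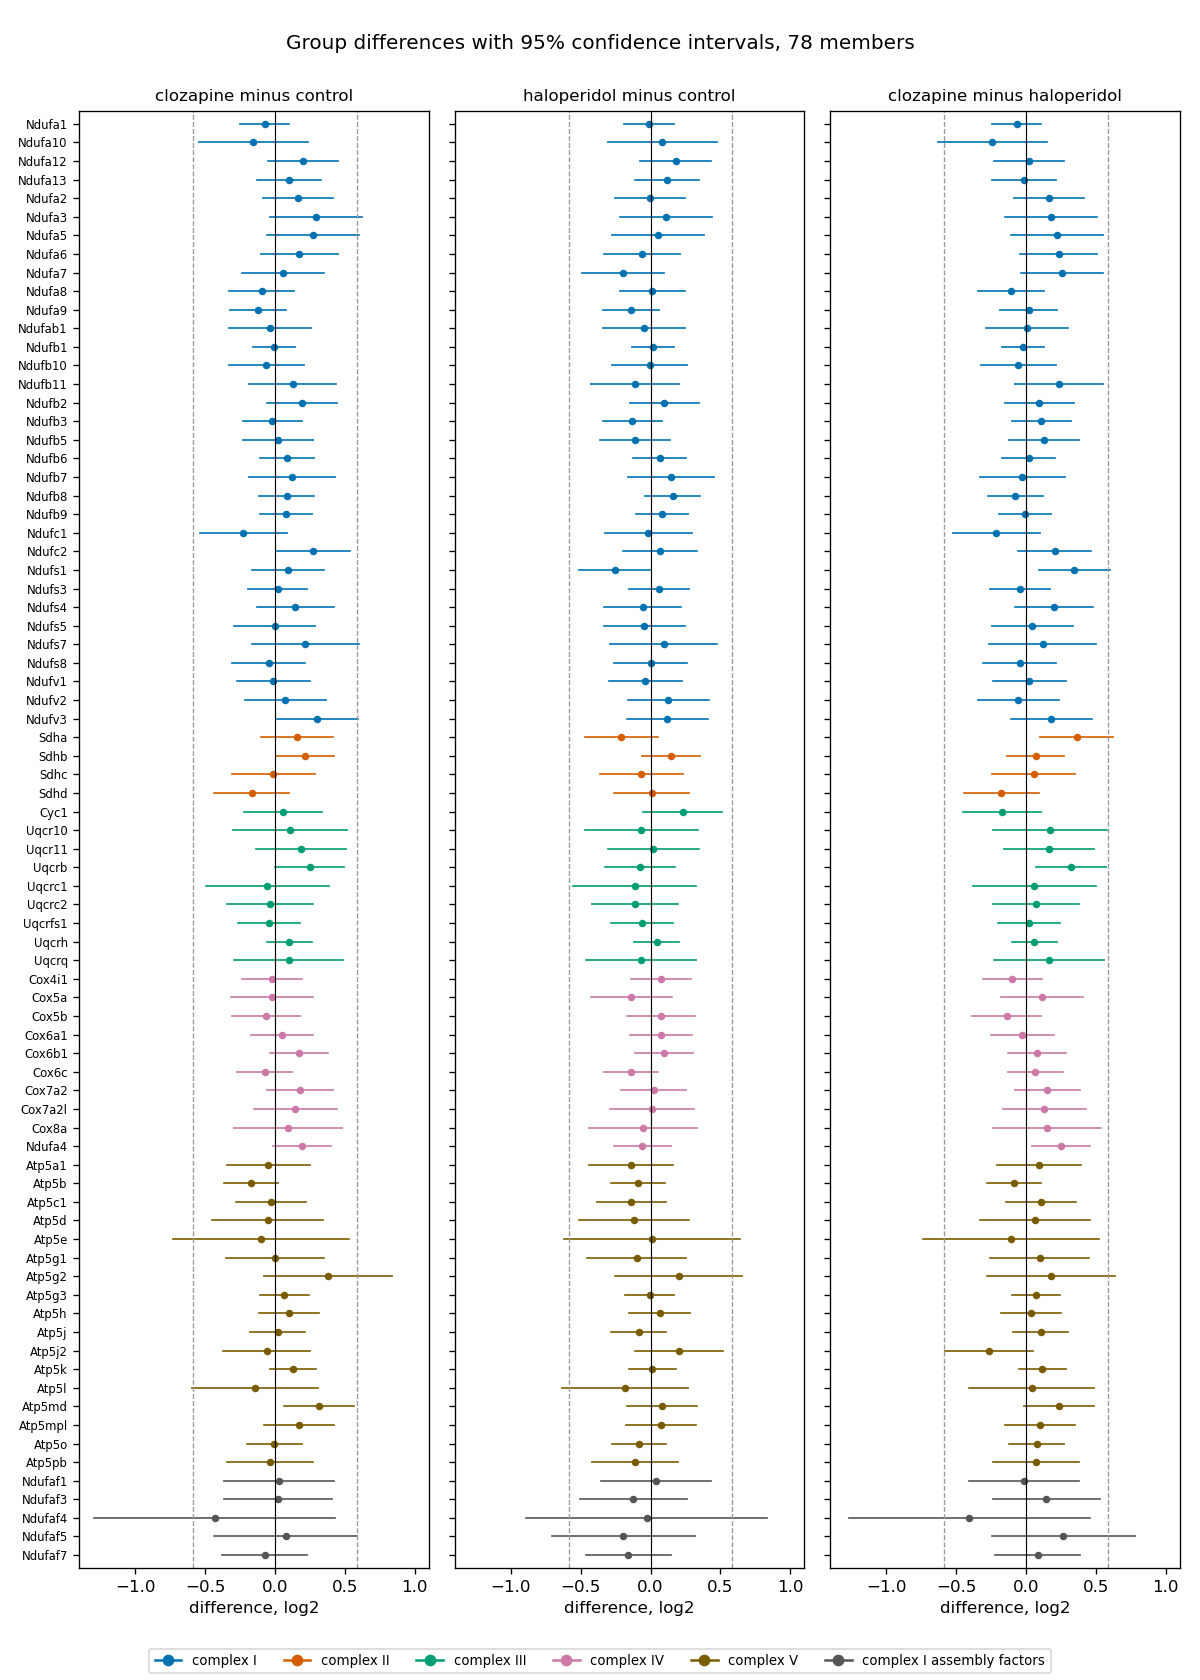
Difference in mean log2 expression for each of the 78 tested genes, by complex, in clozapine minus control, haloperidol minus control and clozapine minus haloperidol; points are limma estimates, lines are 95% confidence intervals (10 arrays per group) and dashed lines mark 1.5-fold. The intervals of most genes include 0, and none of the 78 passed the adjusted threshold in any comparison.

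The comparison of haloperidol with control used the same 10 control arrays. Limma called 0 of the 78 genes, as it called 0% of all probe sets, with a lowest adjusted p of 0.9999. Unadjusted, 0 of the 78 had p under 0.05, against 2.3% of all probe sets. Differences ran from -0.25 for Ndufs1 to 0.23 for Cyc1, and the interval lay within 1.5-fold for 73 of the 78 genes (93.6%), against 58.4% of all probe sets.

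Ndufs1, the largest iron-sulphur subunit of complex I, had the smallest p. Its lowest, median and highest values were 9.93, 10.11 and 10.61 in control, 9.87, 10.26 and 10.52 in clozapine and 9.29, 9.96 and 10.53 in haloperidol. The groups overlapped, and 9 of 10 haloperidol arrays lay below the control mean. The difference was -0.25 (SE 0.13, limma p = 0.052), and -0.18 without haloperidol 2, its lowest array. Within clusters A and B it was -0.07 and -0.10.

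Sdha had a difference of -0.21 (SE 0.13), Cox6c -0.14 (SE 0.096), Ndufa9 -0.14 (SE 0.099) and Ndufa7 -0.20 (SE 0.14). The Ndufa7 difference was -0.31 without haloperidol 2 and -0.11 without haloperidol 7. On the higher side Cyc1, the haem-bearing cytochrome c1 of complex III, had 11.27 ± 0.38 (SD, n = 10) in haloperidol and 11.04 ± 0.30 in control, a difference of 0.23 (SE 0.14). Cyc1 had 0.18 within cluster A and -0.05 within cluster B. The next were Ndufb8 with 0.16 (SE 0.097), Sdhb with 0.15 (SE 0.10), Ndufa12 with 0.18 (SE 0.12) and Atp5j2, the f subunit of ATP synthase, with 0.20 (SE 0.15). Without haloperidol 2 the Ndufb8 difference was 0.083 and that of Sdhb 0.072, each less than before by over 1.5 times. The interval of Sdhb included 0 in this comparison.

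The median difference between haloperidol and control was -0.0068 over the 78 genes, with 37 higher, and -0.030 over all probe sets, with 43.5% higher. Its sign depended on the scaling: it was 0.00097 under quantile normalization and 0.044, with 46 genes higher, with each array centred on its median. Without haloperidol 2 it was -0.061, with 30 higher, and without haloperidol 7 0.0011. The median of all probe sets was 0.0042 under quantile normalization and 0.020 with each array centred on its median. It was -0.038 without haloperidol 2 and -0.031 without haloperidol 7. By complex the medians were 0.013 for I, -0.029 for II, -0.065 for III, 0.018 for IV, -0.083 for V and -0.12 for the assembly factors; with median centring that of II was 0.022. Without haloperidol 2 those of complexes I and IV were -0.034 and -0.029, and those of II and III were -0.11 and -0.10, while that of V was -0.038. Without haloperidol 7 the median of III was 0.036, that of V -0.0100, that of II -0.00021 and that of the assembly factors -0.044.

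The study was set up to set clozapine against haloperidol, and the drugs were compared directly. No respiratory chain gene passed the test here either, and the smallest p-values of the 3 comparisons were found in it. Limma called 0 of the 78 genes, as it called 0% of all probe sets, with a lowest adjusted p of 0.965. Unadjusted, 4 of the 78 (5.13%) had p under 0.05, against 3.14% of all probe sets. These were Sdha, Ndufs1, Uqcrb and Ndufa4, in complexes II, I, III and IV, and all had a higher mean in clozapine. The interval lay within 1.5-fold for 71 of the 78 genes (91.0%), against 56.1% of all probe sets.

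Sdha had the smallest p of the 78 genes. Its lowest, median and highest values were 10.45, 10.83 and 11.04 in control, 10.52, 11.07 and 11.36 in clozapine and 10.26, 10.55 and 11.35 in haloperidol. Clozapine and haloperidol arrays overlapped, and the highest haloperidol array was haloperidol 7. The means were 10.98 ± 0.28 (SD, n = 10) in clozapine and 10.62 ± 0.32 in haloperidol, a difference of 0.36 (SE 0.13) or 1.29-fold (limma p = 0.0076, adjusted p = 0.965), with 9 of 10 clozapine arrays above the haloperidol mean. Sdha was also a gene that differed between array clusters, and cluster C, where it was highest, held 5 clozapine and 0 haloperidol arrays. With the cluster as a block the difference was 0.20 (SE 0.085). The 4 arrays that stood on their own, haloperidol 2 and haloperidol 7 among them, were each a block, so estimates with this block do not draw on them. The Sdha difference was 0.24 within cluster A and -0.03 within cluster B, and a second Sdha probe set had 0.12 (SE 0.11).

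Ndufs1 had a difference of 0.35 (SE 0.13) or 1.27-fold (limma p = 0.0095, adjusted p = 0.965), with 8 of 10 clozapine arrays above the haloperidol mean. It was 0.27 without haloperidol 2, 0.16 (SE 0.10) with the cluster block, and 0.22 within each of clusters A and B. Uqcrb had 12.01, 12.43 and 12.90 in clozapine and 11.56, 12.15 and 12.75 in haloperidol, which overlap. Its difference was 0.32 (SE 0.12, limma p = 0.013), 0.20 (SE 0.12) with the cluster block, 0.25 within cluster A and -0.18 within cluster B.

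Ndufa4 had 10.88, 11.16 and 11.26 in control, 10.97, 11.26 and 11.77 in clozapine and 10.59, 11.09 and 11.30 in haloperidol. The drug groups overlapped, and 8 of 10 clozapine arrays lay above the haloperidol mean. The difference was 0.25 (SE 0.10, limma p = 0.019, adjusted p = 0.965), and it was 0.22 (SE 0.12) with the cluster block and 0.26 and 0.27 within clusters A and B. Of the 4 genes with p under 0.05, Ndufa4 and Ndufs1 had a positive difference in both clusters that hold both drugs. Cluster B holds 1 clozapine array against 3 haloperidol arrays, so each difference within it rests on that clozapine array.

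**Figure D4:**
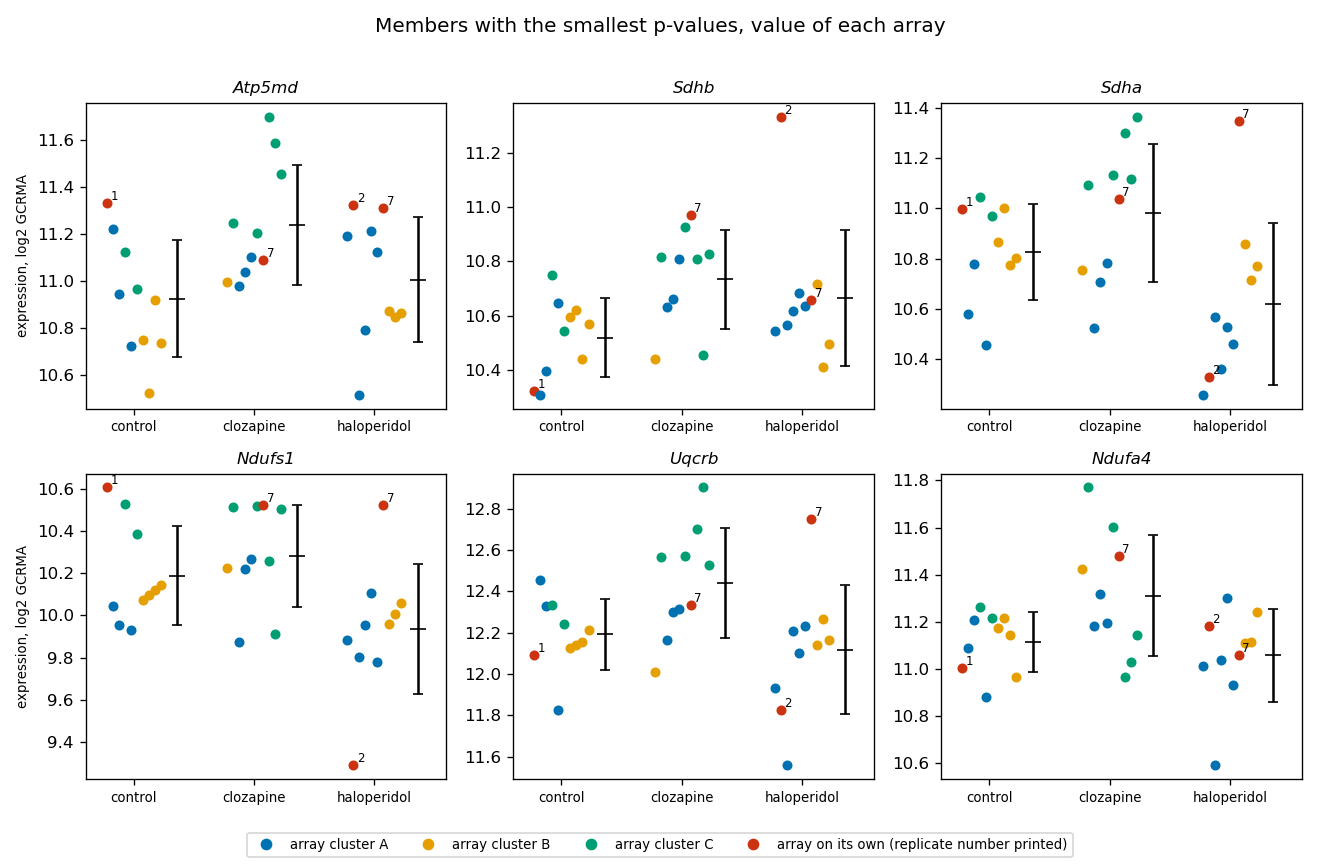
Log2 value of every array for the 6 genes with the smallest p-values in clozapine against control (Atp5md, Sdhb) or clozapine against haloperidol (Sdha, Ndufs1, Uqcrb, Ndufa4), coloured by array cluster, with group means and SD (n = 10). The groups overlap in every panel, and most of the highest clozapine values of Sdha and Atp5md belong to cluster C, which holds 0 haloperidol arrays.

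The fifth smallest p among higher values was that of Atp5md with 0.23 (SE 0.12). The lower side held Atp5j2 with -0.26 (SE 0.15), Ndufc1 with -0.21 (SE 0.15), Sdhd with -0.18 (SE 0.13), Ndufa10 with -0.24 (SE 0.19) and Cyc1 with -0.17 (SE 0.14). Without haloperidol 2 the Ndufc1 difference was -0.14 and that of Sdhd -0.092. Within complex II the subunits thus had differences of 0.36, 0.069, 0.055 and -0.18 for Sdha, Sdhb, Sdhc and Sdhd. Without haloperidol 2 those of Sdhb and Sdhc were 0.14 and 0.13. Cox6c, a complex IV subunit, had 0.067 on its probe set with the highest mean and 0.33 (SE 0.13) on its second, which also had 0.37 (SE 0.13) in clozapine against control. Over the 61 further probe sets tested for 42 of the genes, 48 had the same sign as the first probe set in clozapine against haloperidol, 46 in haloperidol against control and 35 in clozapine against control.

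Over the 78 genes the median difference between the drugs was 0.071, with 55 higher in clozapine, and over all probe sets it was 0.050, with 60.7% higher. By complex it was 0.020 for I, with 20 of 33 genes higher, 0.062 for II, 0.071 for III, with 8 of 9, 0.096 for IV, with 7 of 10, 0.077 for V, with 14 of 17, and 0.084 for the assembly factors; with median centring that of complex I was -0.012. Without haloperidol 2 the medians were 0.099 for complex I, with 27 of 33 higher, 0.13 for II, 0.19 for III, 0.15 for IV, 0.13 for V and 0.12 over the 78 genes, with 62 higher. With the cluster as a block that of complex I was 0.11, with 30 of 33 higher, and that of complex V 0.024, with 12 of 17. The median of the 78 genes was 0.071 within cluster A and 0.070 within cluster B, which holds 1 clozapine array. Leaving out haloperidol 2 raised the count at unadjusted p under 0.05 to 9 (11.5%), with 6.45% of all probe sets. Leaving out control 1 and haloperidol 7 as well raised it to 17 (21.8%), with 17.8% of all probe sets, and limma called 0 in both. Leaving out haloperidol 7 alone gave 6 (7.69%), a smaller share than the 10.5% of all probe sets, and limma called 0. The median of the 78 genes was then 0.0556, with 50 higher, against 0.0555 over all probe sets. With median centring of all arrays it was 0.039, with 49 higher, against 0.018 over all probe sets.

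The 5 genes with the largest spread within groups were Ndufaf4, with a residual SD of 0.99, Atp5e with 0.72, Ndufaf5 with 0.58, Atp5g2 with 0.51 and Atp5l. Ndufaf4 ranged from 7.60 to 10.52 in control, from 6.96 to 9.93 in clozapine and from 6.56 to 9.92 in haloperidol, and the group ranges overlapped. Its second probe set had differences of -0.065 (SE 0.27) in clozapine and -0.075 (SE 0.27) in haloperidol against control. Atp5e ranged from 8.27 to 10.52, from 8.44 to 10.32 and from 7.48 to 10.32. The smallest residual SD among the 78 was 0.12, that of Ndufb1, which lay close to the lower limit of the test. The median residual SD was 0.28 over the 78 genes and 0.44 over all probe sets.

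Of the genes that serve the chain outside its subunits, limma also called 0 in any comparison, as it called 0% of all probe sets. Of 21 tested assembly factors and cytochrome c genes, 3 had an unadjusted p under 0.05 in haloperidol against control, where 2.3% of all probe sets did, and all 3 were lower. They were Cox15, an enzyme of haem A synthesis for complex IV, with -0.46 (SE 0.13), Lrpprc, which stabilises mitochondrial messenger RNA, with -0.52 (SE 0.18), and Aifm1 with -0.37 (SE 0.13). Cytochrome c itself, Cycs, had -0.053 (SE 0.12) in that comparison and 0.061 in clozapine against control. Of 16 genes of pyruvate dehydrogenase and the tricarboxylic acid cycle, Dld had -0.36 (SE 0.17) and Sucla2 -0.36 (SE 0.16) in haloperidol against control. Between the drugs Idh3b had 0.25 (SE 0.089) and Sucla2 0.35 (SE 0.16). In each of these comparisons 2 of the 16 (12.5%) had an unadjusted p under 0.05, against 2.3% and 3.14% of all probe sets. The median differences of the cycle genes were -0.014 in clozapine and -0.097 in haloperidol against control.

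Among 14 tested regulators of mitochondrial gene expression, Pprc1, a coactivator related to Ppargc1a, had 0.57 (SE 0.18) in haloperidol against control. Of the 14, 11 had a higher mean there, where 43.5% of all probe sets did. That share of all probe sets depended on the scaling. It was 50.9% under quantile normalization and 54.6% with each array centred on its median. Pprc1 was the 1 regulator of the 14 (7.14%) with an unadjusted p under 0.05, against 2.3% of all probe sets. Ppargc1a, a main coactivator of mitochondrial biogenesis, had 0.033 (SE 0.16) in clozapine and -0.12 (SE 0.16) in haloperidol against control, and Tfam, which packages mitochondrial DNA, had -0.014 and -0.021 (SE 0.14 for both). Nrf1 had a mean of 2.98 and was not tested. Of 21 carriers and import genes, Slc25a4, the ADP/ATP carrier that exports the product of complex V, had -0.26 (SE 0.11) in clozapine and -0.24 (SE 0.11) in haloperidol against the same controls. In each of these comparisons 1 of the 21 (4.76%) had an unadjusted p under 0.05, against 4.35% and 2.3% of all probe sets.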

How the data were processed

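Expression was measured in 30 mouse forebrain samples, 10 per group; sample titles gave the groups. The authors deposited log2 values computed with GCRMA, as the submitters' processing notes state. The GCRMA version, which arrays were normalized jointly and when they were scanned were not given in the sources used here. GCRMA corrects background by probe sequence, normalizes arrays and summarises probes, and it compresses differences between weakly expressed genes.

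Of 22690 probe sets, 64 controls were left out and 12944 with a mean of at least 4 were tested. Genes were named from the platform annotation; 8 probe sets with several symbols, of which at least 1 carries a listed prefix, were not used. All 85 genes matched RefSeq by Entrez identifier. Limma 3.58.1 in R 4.3.3 (lmFit, eBayes) was fitted once to the 30 arrays, with 27 residual degrees of freedom. Tests were two-sided, with Benjamini-Hochberg adjustment over all probe sets tested. The fit was tested on simulated data with independent noise and without array clusters or outlying arrays. That test therefore does not show how the fit handles clusters or outlying arrays. Members and lists were chosen with earlier results of these data known. Named genes were the 5 with the smallest p in each direction and comparison, the 5 with the largest residual SD and a fixed set of main subunits; second probe sets of Cox6c, the array departures, the cluster levels and the genes of other lists were named after their values were seen. Array clusters came from average-linkage clustering of Pearson correlations, with the tree divided into 7. In the cluster block each of the 4 arrays on their own was a block, so the block estimates do not draw on them. The number of arrays limits the precision. Each p-value sets a difference against the spread between arrays within groups, with 1 mouse per array. In that spread, differences between mice, RNA quality and array clusters cannot be told apart. Alternatives were the filter, the scaling, replicate and cluster blocks, an RNA quality covariate, array weights, left-out arrays, the samples in the fit and all probe sets of a gene; array weights with the cluster block were added after seeing the data. Promoters were searched for 4 motifs with Python 3.11.15; a further motif searched at first is not reported here.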

Additional observations from a re-analysis of the deposited data

Results flagged for a closer look

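Values were picked out where the highest or lowest array of a group of 10 stood apart from the nearest other array by a larger share of the group's range than Dixon's 95% critical value. This happened in 28 of 153 groups examined (18.3%), where chance picks out about 1 in 20 independent groups. These groups are not independent, since 1 array can stand apart for many genes, and they include the 5 genes with the largest spread, so that rate is no measure of the excess. Haloperidol 2 accounted for 12, control 5 for 4, haloperidol 7 for 3 and control 1 for 2.

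Haloperidol 2 was the highest array of its group for Atp5g1 (11.34), Atp5g2 (10.96), Atp5o (11.21), Cox4i1 (13.31), Cox6a2 (4.501), Cox7a1 (4.55), Ndufb8 (10.36), Ndufc1 (10.68) and Sdhb (11.33). It was also the highest for the mean of the 78 genes (0.40 above the 30-array mean), of complex I (0.43) and of complex II (0.41).

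Haloperidol 7 was the lowest of its group for Atp5e (7.48) and Atp5l (8.43) and the highest for Cox4i2 (2.85). Control 1 was the lowest control for Atp5g2 (7.92) and the highest for Uqcrfs1 (10.45). Control 5 was the highest control for Cox8b (4.40) and Cyc1 (11.82) and the lowest for Ndufa7 (9.51) and Ndufaf5 (5.77).

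The others were single arrays. Among controls they were Atp5b in control 3 (12.64, low), Atp5o in control 6 (10.41, low) and Ndufv3 in control 4 (11.24, high). Among treated mice they were Cox4i2 in clozapine 3 (3.01, high), Cox7a1 in clozapine 5 (4.10, high), Ndufa9 in clozapine 9 (9.58, low) and Ndufa4 in haloperidol 3 (10.59, low). Cox4i2, Cox6a2, Cox7a1 and Cox8b lay below the level required for testing.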

How the results depend on the processing

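The count of respiratory chain genes called was 0 in all 3 comparisons under each alternative but 1. Limma with array weights called 7 of the 78 genes in clozapine against control (8.97%), where it called 13.4% of all probe sets: Atp5md, Ndufa6, Ndufc2, Ndufa5, Ndufv3, Ndufa12 and Uqcrb, all higher. It gave controls 7 to 10 weights of 3.44 to 4.86, and with the array cluster added as a block 0 were called. With the replicate number as a replicate block 0 were called in each comparison. Same-numbered arrays were alike in some cases only. Of 30 same-numbered pairs 17 had a correlation of deviations over 0.1, with a median of 0.16 and a range of -0.50 to 0.80. Haloperidol and control arrays numbered 8 to 10 had 0.72 to 0.80. Only 4 of 30 arrays correlated best with their own number. Of the 30 named differences, chosen by the smallest p in these same data, 28 kept their sign under the 14 alternatives. Several alternatives could not reverse a sign. The filters, the replicate block and the fit of only the 2 groups compared leave each difference as it was. Leaving out an array of the group outside the comparison does so too. Ndufc1 changed sign. In clozapine against haloperidol its difference was 0.090 with the cluster block and 0.12 with array weights and the block. In clozapine against control it was 0.0059 with the latter. The cause was not tested. The median half-width of the confidence interval was 1.202-fold in clozapine against control, and it differs between genes.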
